A study of Homo sapiens with 4 samples.

Results

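Cytoplasmic dynein was examined through 10 genes, 9 that encode chains of the motor and DCTN1, which encodes the largest subunit of its activator dynactin. The genes were fixed by their symbols and found by Ensembl identifier, and all 10 were present among the 20323 genes deposited. RNA was measured in 4 libraries of NK-92, a human natural killer (NK) cell line grown with interleukin 2. NK scramble cells carried a lentiviral scrambled hairpin and NK shADAR1 cells a lentiviral hairpin against ADAR1, an RNA-editing enzyme, and each group had 2 libraries. All cells had therefore been transduced, with polybrene and centrifugation, and no untransduced cells were among the libraries. The labels call the libraries independent biological replicates and number them 1 and 2 in each group. Per the paper, the sequenced knockdown cells carry 1 hairpin of the 2 it used, shADAR1-2. The knockdown libraries are titled shADAR1-1 and shADAR1-2, which are also the paper's names for its 2 hairpins. They were read as replicates of 1 hairpin, and a difference of hairpin between them was not tested.

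Cytoplasmic dynein is the motor that carries cargo toward the minus ends of microtubules, which in most cells means toward the centrosome. Its heavy chain holds the ATP-driven motor domain, intermediate and light intermediate chains link the motor to dynactin and to cargo adaptors, and light chains of the LC8, roadblock and TCTEX families bind the intermediate chain. In NK cells, dynein is known for gathering lytic granules at the centrosome before they are released at the contact with a target cell. It also works in mitosis and in the placement of the Golgi apparatus.

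The LC8 light chains show how alike these subunits can be while being encoded by separate genes. DYNLL1 lies on the plus strand of chromosome 12 from 120469850 to 120498493 and DYNLL2 on the plus strand of chromosome 17 from 58083415 to 58095536 (GRCh38, GENCODE release 29). Both encode 89 amino acids, of which 83 are identical, yet 55 of the 270 bases of the coding sequence differ, 49 of them at the third position of a codon. The coding sequences of both genes are shown because nearly the same protein is written with different bases, and capitals mark each base that differs between them.
DYNLL1: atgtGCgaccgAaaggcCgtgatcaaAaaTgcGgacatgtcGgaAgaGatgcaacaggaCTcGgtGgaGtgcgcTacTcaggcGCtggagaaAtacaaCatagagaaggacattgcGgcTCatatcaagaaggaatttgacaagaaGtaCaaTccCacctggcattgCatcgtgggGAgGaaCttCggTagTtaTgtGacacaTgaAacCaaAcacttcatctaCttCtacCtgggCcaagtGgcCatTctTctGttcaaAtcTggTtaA
DYNLL2: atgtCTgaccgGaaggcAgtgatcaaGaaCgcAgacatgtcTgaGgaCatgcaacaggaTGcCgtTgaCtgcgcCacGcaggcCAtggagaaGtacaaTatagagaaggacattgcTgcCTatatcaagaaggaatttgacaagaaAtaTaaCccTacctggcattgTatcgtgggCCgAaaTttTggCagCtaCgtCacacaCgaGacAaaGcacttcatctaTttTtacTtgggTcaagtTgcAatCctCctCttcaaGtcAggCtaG
The longest run of bases that both coding sequences share is 25. The other paralog pairs were less alike, with 66.1% identical bases in the coding sequences of DYNC1LI1 and DYNC1LI2 and 67.7% in those of DYNLT1 and DYNLT3, and their longest shared runs were 17 and 11 bases.

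The libraries held 37881704 to 39960491 estimated counts each, and the 10 genes held 44193 to 48764 of them, which is 0.112% to 0.122% of a library. The targeted gene, ADAR, had 655 and 682 CPM (counts relative to library size after TMM scaling) in the controls and 575 and 482 CPM in the knockdown cells. Here and below, controls are NK scramble libraries, knockdown libraries are NK shADAR1, and values of a group are those of replicate 1 and then replicate 2. ADAR differed by -0.34 ± 0.20 (SE) on the log2 scale, which did not pass edgeR's quasi-likelihood test (adjusted p = 1.00). Of the 11810 genes tested, 0 passed it together with a 1.5-fold change. The paper reports the knockdown in NK-92 cells by qRT-PCR and western blot. NK markers were present as labelled. All 15 of them were detected in every library, from 2.96 FPKM at the lowest to 2081 FPKM for NKG7, and their summed level ranged from 4496 to 5165 CPM in NK scramble and from 5019 to 5026 CPM in NK shADAR1 libraries. The T cell genes CD8A and CD8B, the B cell gene MS4A1 and the monocyte gene FCN1 had 0 counts in all 4 libraries. The summed level of 7 T cell markers was 101 to 123 CPM in NK scramble and 123 to 141 CPM in NK shADAR1 libraries and was mostly TRAC. That of 5 B cell markers was 22.1 to 24.6 and 20.1 to 46.2 CPM. It was mostly PAX5, which ranged from 714 to 1721 counts per library and was highest in NK shADAR1 replicate 1. That of 5 monocyte markers was 72.5 to 110 and 108 to 110 CPM. It was mostly ITGAX, which ranged from 2830 to 4279 counts per library. The part of these markers in the results was not tested.

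Per transcript length, the light chains DYNLL1 and DYNLRB1 had the highest levels among the 10 genes. FPKM (fragments relative to transcript length and sequencing depth) is the scale on which levels of different genes are compared here. DYNLL1 ranged from 141 to 177 FPKM over the 4 libraries and was first in each of them. DYNLRB1, the roadblock light chain, followed at 88.7 to 104 FPKM and DCTN1 at 48.6 to 53.0 FPKM, and none of these 3 ranges overlapped. Next came the TCTEX light chain DYNLT1 (28.7 to 44.9 FPKM), the heavy chain DYNC1H1 (29.7 to 35.6 FPKM) and the second LC8 chain DYNLL2 (21.3 to 32.1 FPKM), whose ranges overlapped, so their order was not fixed. The lowest levels belonged to the light intermediate chains DYNC1LI1 (15.3 to 17.8 FPKM) and DYNC1LI2 (9.62 to 16.3 FPKM), the intermediate chain DYNC1I2 (8.99 to 13.9 FPKM) and the second TCTEX chain DYNLT3 (9.01 to 11.8 FPKM). DYNC1LI1 overlapped only DYNC1LI2 among these, whereas the ranges of DYNC1LI2, DYNC1I2 and DYNLT3 overlapped each other.

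**Figure D1:**
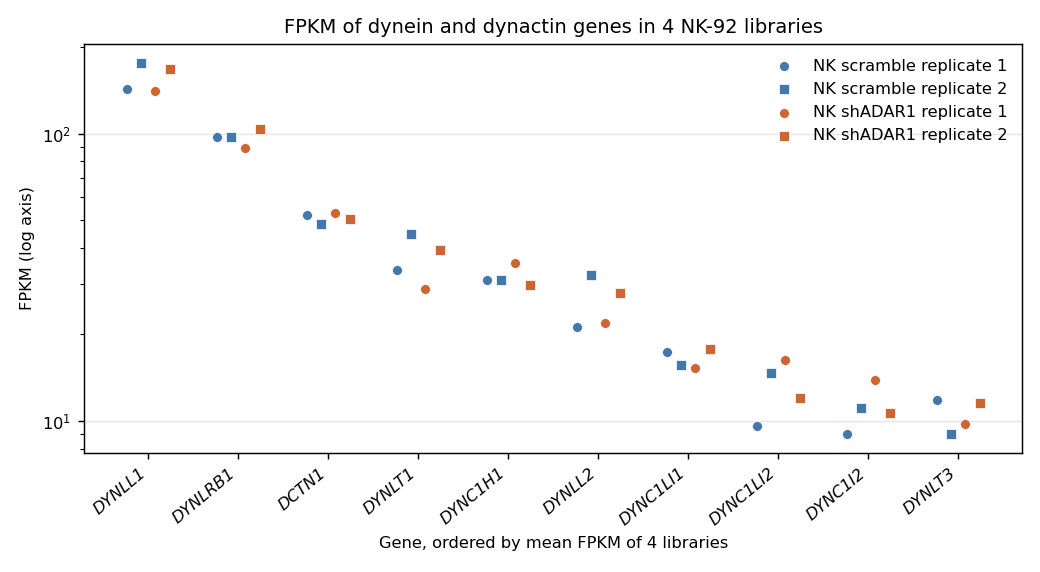
FPKM on a log axis for each of the 10 genes, 1 point per library (blue, NK scramble; orange, NK shADAR1; circle, replicate 1; square, replicate 2). DYNLL1, DYNLRB1 and DCTN1 keep the same rank in all 4 libraries, and the points of both groups overlap for all 10 genes.

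Set against the heavy chain in FPKM, the level of DYNLL1 was 3.96 to 5.73 times that of DYNC1H1 and the level of DYNLRB1 2.50 to 3.49 times. The level of DYNC1I2 was 0.292 to 0.392 times that of DYNC1H1, although both chains are present as pairs in the motor. DYNLL1 is also a partner of many proteins outside dynein, as a general dimerization hub. In NK shADAR1 replicate 1, where DYNC1H1 itself was highest, the ratio to DYNC1H1 was at its lowest for DCTN1, DYNC1LI1 and all 5 light chain genes, and at its highest for DYNC1I2.

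None of the 10 genes differed between NK shADAR1 and NK scramble cells in the test. With edgeR's quasi-likelihood test and adjustment over all tested genes, 0 of the 10 had an adjusted p under 0.05 together with a 1.5-fold change, as did 0% of the 11810 genes tested. The adjusted p of each was 1.00. In RNA from whole cultures, a change in RNA per cell and a change in the share of cells with the RNA cannot be told apart. At an unadjusted p under 0.05 the count was again 0 of 10, where 2.48% of all tested genes passed. DESeq2 gave 0 of 10 at either threshold, beside 0% and 1.85% of the 15605 genes it tested. The log2 fold changes lay between -0.20 for DYNLT1 and 0.32 for DYNC1I2, 5 genes being higher and 5 lower in NK shADAR1 cells. Their median was 0.0030, beside 2.76e-05 for all tested genes. All 10 passed the filter on low counts, and their counts ran from 735 to 19464 per library, so counting error was at most 3.69% of any value and the spread between libraries set the precision. The smallest two-sided p of an exact permutation test of 2 libraries against 2 is 0.333, so none was made on single genes.

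**Figure D2:**
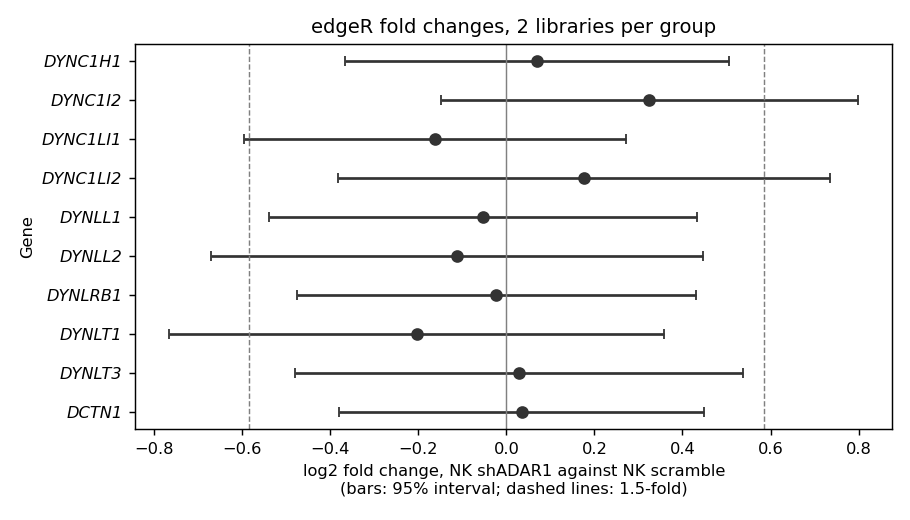
Log2 fold change of each gene between NK shADAR1 and NK scramble cells (points) with its 95% interval from edgeR (bars), with dashed lines at a 1.5-fold change. Every interval crosses 0, and those of DYNC1I2, DYNC1LI1, DYNC1LI2, DYNLL2 and DYNLT1 reach past 1.5-fold on one side.

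DYNC1H1 encodes the heavy chain, a protein of 4646 amino acids that carries the motor domain. Its level was 438 and 451 CPM in the controls and 495 and 438 CPM in the knockdown libraries. The knockdown library with 495 CPM was above both controls and the other knockdown library was level with the lower control, so the groups overlapped. The log2 fold change was 0.07 ± 0.20 (SE, n = 2 per group), with a 95% interval from -0.37 to 0.51. Without NK shADAR1 replicate 1 it was -0.020.

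DYNC1I2, the intermediate chain that docks dynactin and the light chains, had the largest difference of the 10 genes. The controls had 23.3 and 26.9 CPM, and the knockdown libraries 34.9 and 27.9 CPM. Both knockdown libraries lay above both controls. The log2 fold change was 0.32 ± 0.21 (edgeR, unadjusted p = 0.158, 95% interval -0.15 to 0.80). It was 0.16 without NK shADAR1 replicate 1 and 0.22 without NK scramble replicate 1. In FPKM its groups overlapped, at 8.99 and 11.1 against 13.9 and 10.6. In GENCODE, the pseudogene DYNC1I2P1 shares 1618 of the 2604 bases of the DYNC1I2 transcript compared in exact runs of at least 50 bases, and it is not a row of the deposited table, so how its reads were assigned is unknown.

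The light intermediate chains hold the cargo adaptors, and a motor carries either DYNC1LI1 or DYNC1LI2. DYNC1LI1 was measured at 42.5 and 37.9 CPM in the controls, against 35.2 and 36.7 CPM in the knockdown libraries. Both knockdown libraries were below both controls, and the log2 fold change was -0.16 ± 0.20 (95% interval -0.60 to 0.27). It was -0.080 without NK scramble replicate 1 and -0.25 without NK scramble replicate 2. DYNC1LI2 varied far more, with 36.1 and 56.5 CPM in the controls and 59.3 and 45.3 CPM in the knockdown libraries. Here the replicates of a group differed by 56.3% and 30.9%, more than the 13.0% between the group means. Its log2 fold change was 0.18 ± 0.25 (95% interval -0.38 to 0.73), and it was -0.11 without NK scramble replicate 1 and -0.031 without NK shADAR1 replicate 1. In GENCODE, the gene AC018557.1 matches, on the opposite strand, 1100 of the 4515 bases of the DYNC1LI2 transcript compared. Another gene, AL118558.1, matches in the same way 737 of the 20003 bases of that of DYNC1H1. The sources used here do not say whether counting used strand. In all, 1640 bases of the DYNC1H1 transcript lie in runs of at least 50 bases shared with many other genes on either strand. Of these, 897 are shared with genes of the deposited table. The deposited counts and FPKM imply a length of 14314 to 14453 bases for DYNC1H1 and of 3650 to 3795 bases for DYNC1LI2. Both are shorter than the transcripts compared here, so how many of the shared bases were counted is unknown.

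DYNC1I2 and DYNC1LI1 were thus 2 of 10 genes whose groups did not overlap in CPM, 1 higher and 1 lower in NK shADAR1 cells. Among all 11810 tested genes, 13.3% had both knockdown libraries above both controls and 12.6% had both below, so the share among dynein and dynactin genes was close to that of genes at large. In FPKM, 0 of the 10 genes had groups that did not overlap, where 14.2% of all tested genes had both knockdown libraries above and 11.6% both below the controls.

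The LC8 light chains differed more between replicates than between the groups. DYNLL1 had 94.3 and 120 CPM in the controls and 90.6 and 116 CPM after knockdown. DYNLL2 had 144 and 222 CPM in the controls, against 143 and 196 CPM after knockdown. For both genes, the libraries numbered 1 were low and the libraries numbered 2 were high in either group. The replicates of DYNLL2 differed by 54.8% in NK scramble and by 36.5% in NK shADAR1 cells, where counting error was at most 1.33%, and the group means differed by 8.01%. The log2 fold changes were -0.05 ± 0.22 for DYNLL1 (95% interval -0.54 to 0.43) and -0.11 ± 0.25 for DYNLL2 (95% interval -0.67 to 0.45). They turned to 0.13 and 0.23 without NK scramble replicate 2 and to 0.11 and 0.097 without NK shADAR1 replicate 1. The annotated pseudogenes DYNLL1P1, DYNLL1P2 and DYNLL1P7 share 68 to 75 bases with the DYNLL1 transcript, and that of DYNLL2 shares no run of 50 bases with any other gene.

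DYNLRB1, the roadblock light chain, had 64.0 and 65.9 CPM in the controls and 56.8 and 71.1 CPM in the knockdown libraries. The knockdown libraries lay on either side of the controls, and the log2 fold change was -0.02 ± 0.20 (95% interval -0.48 to 0.43). DYNLT1, a TCTEX light chain, had 24.2 and 33.3 CPM in the controls, against 20.2 and 29.7 CPM after knockdown. It was the gene with the lowest fold change, at -0.20 ± 0.25 on the log2 scale (95% interval -0.76 to 0.36), and its groups overlapped. Like the LC8 chains, DYNLRB1 and DYNLT1 were higher in the libraries numbered 2 of both groups. Replicates differed in the same direction in both groups for these 4 of the 10 genes, beside 59.8% of the 11810 tested genes. A shared direction between replicates was thus not particular to these light chains. The 59.8% counts genes that were higher or lower in the libraries numbered 2, and the share that was higher was not computed. DYNLT3, the other TCTEX light chain, was measured at 23.9 and 18.7 CPM in the controls and at 19.1 and 24.4 CPM after knockdown. It was higher in the library numbered 2 of the knockdown group only, and its groups overlapped. Its log2 fold change was 0.03 ± 0.23 (95% interval -0.48 to 0.54). Leaving out NK shADAR1 replicate 1 turned the direction for DYNLRB1 (0.13) and DYNLT1 (0.050). Leaving out NK scramble replicate 2 turned it for DYNLT1 (0.041) and DYNLT3 (-0.14), and leaving out NK shADAR1 replicate 2 for DYNLT3 (-0.16).

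DCTN1, whose product p150Glued binds the intermediate chain and the microtubule, was the steadiest of the 10 genes. The controls had 216 and 208 CPM and the knockdown libraries 216 and 219 CPM, and the highest library exceeded the lowest 1.05-fold. The log2 fold change was 0.03 ± 0.19 (95% interval -0.38 to 0.45). The gene AC006030.1, which shares 662 bases with the DCTN1 transcript compared, had 3.01 to 11.4 estimated counts per library, against 8183 to 8641 for DCTN1.

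**Figure D3:**
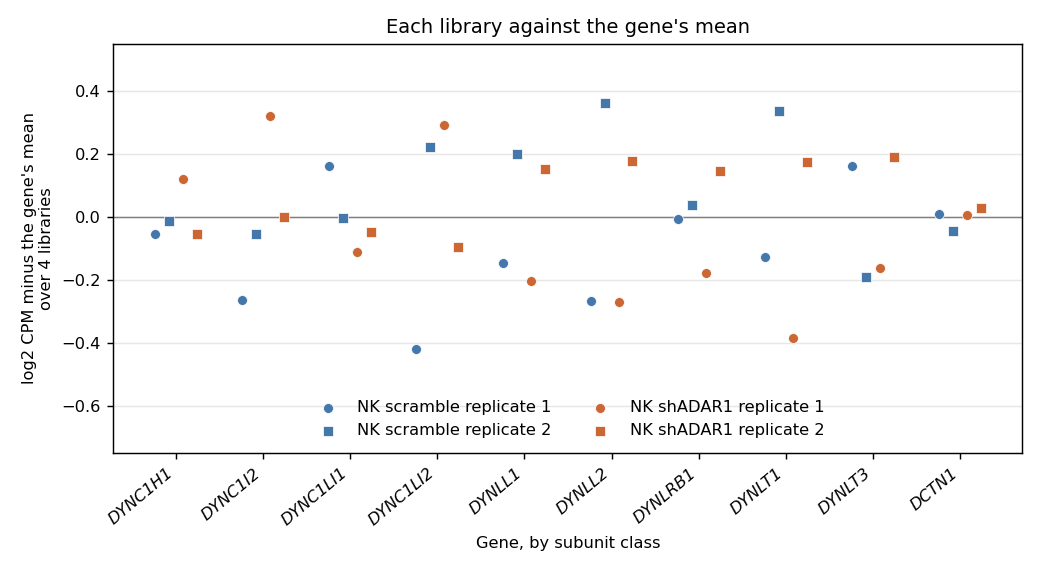
Log2 CPM of each library minus the gene's mean over the 4 libraries, with genes ordered by subunit class (colors and markers as in the plot of FPKM). The squares, both libraries numbered 2, lie above the circles for DYNLL1, DYNLL2, DYNLRB1 and DYNLT1, whereas NK shADAR1 replicate 1 is the highest point for DYNC1H1, DYNC1I2 and DYNC1LI2.

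No library was high or low for all genes. NK shADAR1 replicate 1 had the lowest CPM of the 4 for 5 genes (DYNC1LI1, DYNLL1, DYNLL2, DYNLRB1 and DYNLT1) and the highest for 3 (DYNC1H1, DYNC1I2 and DYNC1LI2). NK scramble replicate 2 was highest for 3 genes and lowest for 2, NK shADAR1 replicate 2 highest for 3 and lowest for 1, and NK scramble replicate 1 highest for 1 and lowest for 2. In 9 of the 10 genes, the replicates of at least 1 group differed by more than the group means did, and in 6 genes those of both groups did.

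The mix within each paralog pair was compared as the first gene's share of the FPKM of both. DYNLL1 made up 87.0% and 84.6% of LC8 FPKM in the controls and 86.6% and 85.8% after knockdown. This was the most even of the 3 shares, at 85.8% ± 1.68 and 86.2% ± 0.55 (SD, n = 2). DYNLT1 made up 73.9% and 83.3% of TCTEX FPKM in the controls and 74.6% and 77.3% after knockdown. DYNC1LI1 made up 64.3% and 51.7% of light intermediate chain FPKM in the controls and 48.4% and 59.7% after knockdown, so its share crossed the midpoint in 1 library. In each pair the groups overlapped, and the differences between the group means, 0.38, -2.62 and -3.94 percentage points in this order, were smaller than the larger SD.

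**Figure D4:**
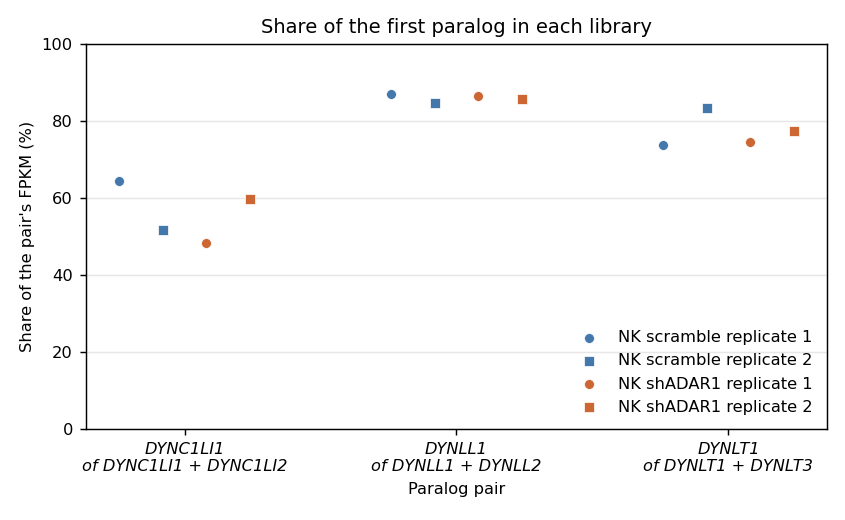
Share of the first gene in the summed FPKM of each paralog pair, in percent, 1 point per library (colors and markers as in the plot of FPKM). The LC8 pair is nearly constant at 84.6% to 87.0%, and the light intermediate chain pair spans 48.4% to 64.3%.

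The FPKM and count columns together give the length by which a gene was divided, and it was not the same in every library. The highest length exceeded the lowest by 0.0013% for DYNLT1, by 0.0033% for DYNLL2, by at most 1.06% (DCTN1) for 7 of the 10 genes and by 3.97% for DYNC1LI2, where the median gene with a mean of at least 50 counts spread by 5.59%. DYNC1I2 and DYNC1LI1 spread more than that median gene. DYNC1LI1 had 2479, 2373 and 2397 bases in NK scramble replicates 1 and 2 and NK shADAR1 replicate 1 and 1995 bases in NK shADAR1 replicate 2, a spread of 24.2%, and DYNC1I2 spread by 9.54%. GENCODE lists 4 coding transcripts of DYNC1LI1, the longest with 2504 bases and the next with 1827 bases. The difference of DYNC1LI1 between the groups was near 0 on the FPKM scale, where limma gave a log2 fold change of -0.0013 ± 0.19 (SE, on log2 of FPKM + 1), against -0.16 from counts.

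The other genes of the pathway were taken from lists of general knowledge. Of 13 further subunits of dynein and dynactin, 12 were tested, 8 were higher and 4 lower in NK shADAR1 cells, and their median log2 fold change was 0.025, or -0.12 without NK shADAR1 replicate 2. None had an unadjusted p under 0.05. The largest difference upward was that of DYNC1I1, the intermediate chain known mainly from neurons, which had only 18 and 31 counts in the controls and 37 and 28 after knockdown (log2 fold change 0.45 ± 0.55). The largest downward was that of DCTN4, a subunit of the pointed end of dynactin, at 79.0 and 90.6 CPM against 76.8 and 76.5 CPM (log2 fold change -0.15 ± 0.20). DYNLRB2, the second roadblock chain, had 1 to 7 counts per library and was not tested.

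Of 32 regulators and cargo adaptors, 29 were tested, 14 were higher and 15 lower, and their median log2 fold change was -0.012. One had an unadjusted p under 0.05, which is 1 of 29 beside 2.48% of all genes. It was KNTC1, part of the complex that brings dynein to kinetochores, with 70.2 and 58.4 CPM in the controls and 96.7 and 84.8 CPM after knockdown. Both knockdown libraries were above both controls, and the log2 fold change was 0.50 ± 0.20, with an unadjusted p of 0.0348 and an adjusted p of 1.00 from edgeR. The largest difference upward was that of CCDC88A, an adaptor of the Hook-related family also called girdin, at 10.4 and 5.52 CPM against 14.0 and 11.1 CPM (log2 fold change 0.66 ± 0.31). The largest downward was that of RILP, which links dynein to late endosomes and lysosomes, at 22 to 35 counts per library (log2 fold change -0.34 ± 0.55).

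Dynein-2, the motor of return transport in cilia, had 5 of 5 genes tested and none at an unadjusted p under 0.05. Its heavy chain gene DYNC2H1 had 36 and 16 counts in the controls and 51 and 45 after knockdown (log2 fold change 0.93 ± 0.55), and the largest difference downward was that of DYNLT2B, a light chain (-0.12 ± 0.33). Of 13 genes for axonemal heavy chains, which drive the beating of cilia, 9 did not pass the filter on low counts, 3 of them with 0 counts in every library, and none of the 4 tested had an unadjusted p under 0.05. Of 14 genes for partners of the light chains outside dynein and for related TCTEX proteins, 12 were tested, 7 were higher and 5 lower, and none passed. ACVR2B, an activin receptor, had 12 and 15 counts against 14 and 31 (log2 fold change 0.79 ± 0.65), and RAB6A, a small GTPase of the Golgi apparatus, was at 153 and 139 CPM against 111 and 138 CPM (-0.23 ± 0.20). The medians of all these lists were descriptions and were not tested as sets.

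**Figure D5:**
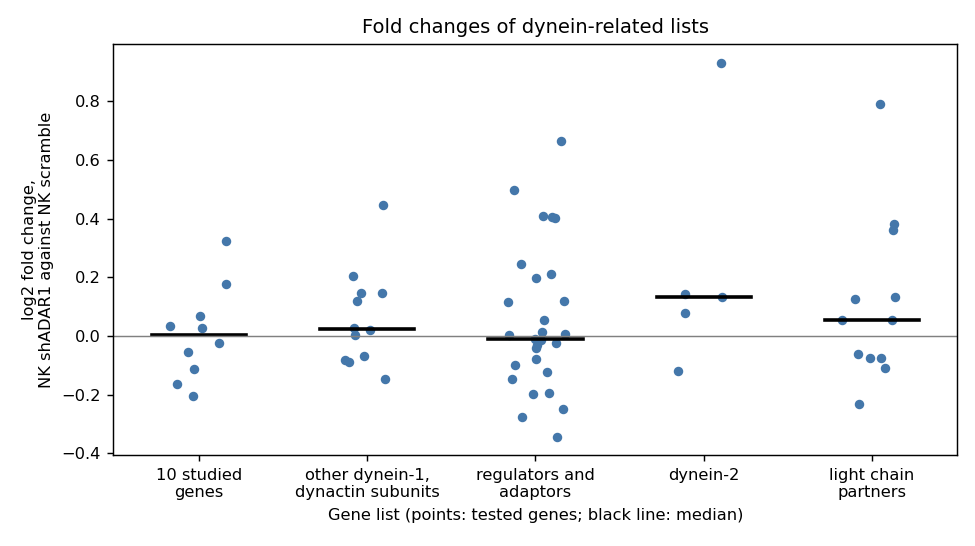
Log2 fold changes between NK shADAR1 and NK scramble cells of every tested gene in the 10 studied genes and in 4 related lists, with the median of each list as a black line. The medians of the studied genes, of the other subunits and of the regulators lie at 0.0030, 0.025 and -0.012, and the genes farthest from 0, DYNC2H1 and ACVR2B, have low counts.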

How the data were processed

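Messenger RNA, enriched with oligo(dT) beads, was sequenced from 4 NK-92 libraries. The table the authors deposited holds estimated counts per gene, which are not all whole and not scaled, and FPKM values, scaled for length and depth. fastp 0.18.0 is named in the submitters' processing notes. The aligner, counter, build and annotation are not given in the sources used here.

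Counts were rounded. edgeR 4.0.16 (R 4.3.3; filterByExpr with a minimum count of 10, TMM) was fitted to all genes, and p-values were adjusted by Benjamini-Hochberg over the 11810 genes tested. SE is the log2 fold change divided by the square root of F. Of 20323 identifiers, 20301 had a symbol. Implied length is count over FPKM and library total. Loci and coding sequences are from GENCODE release 29, matched by identifier. The edgeR, DESeq2 and limma fits were checked on simulated data for the direction of changes larger than those of the 10 genes. Changes as small as theirs and differences between replicate numbers were not simulated, so the check does not bear on them.

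The studied genes and the lists were chosen with earlier results of these data known. Named beside the 10 genes were ADAR, listed genes at an unadjusted p under 0.05, and the largest rise and fall among the other subunits, the regulators and adaptors, dynein-2 and the light chain partners. Genes of like pattern were not sought, since 4 libraries allow no correlation. Alternatives were DESeq2 1.42.0, limma 3.58.1 on log2(FPKM + 1), RLE and upper quartile scaling, no filter, a mean of at least 50 counts, the replicate number as a block, and each library left out.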

Additional observations from a re-analysis of the deposited data

How the results depend on the processing

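Under every alternative that kept all 4 libraries, 0 of the 10 dynein and dynactin genes had an adjusted p under 0.05 and 0 had an unadjusted p under 0.05. Among all genes tested in these settings, the share at an unadjusted p under 0.05 was 1.85% (DESeq2) to 5.77% (replicate block). An adjusted p under 0.05 was reached by 13 genes with the block and by 0 in the others. The 0 of 10 was thus near the share of genes at large. Under DESeq2, RLE or upper quartile scaling, either filter, the replicate block and FPKM, all 10 log2 fold changes kept their sign. The number of genes whose groups did not overlap was 2 in CPM, where 13.3% of all genes had groups apart upward and 12.6% downward. It was 0 in FPKM, where 14.2% of all genes had groups apart upward and 11.6% downward. Under upper quartile scaling or with a mean of at least 50 counts it was 3. The share of all genes was not computed for these alternatives, so the 3 cannot be set against it. With each library left out in turn, where a lone library was assumed to vary like the other group, log2 fold changes crossed 0 for 7 genes. They ranged from -0.020 to 0.15 for DYNC1H1, from -0.11 to 0.53 for DYNC1LI2, from -0.24 to 0.13 for DYNLL1, from -0.39 to 0.23 for DYNLL2, from -0.20 to 0.13 for DYNLRB1, from -0.51 to 0.050 for DYNLT1 and from -0.16 to 0.21 for DYNLT3, against 0.16 to 0.47 for DYNC1I2, -0.25 to -0.080 for DYNC1LI1 and 0.0016 to 0.060 for DCTN1, which kept their sign. The median of the 10 genes ranged from -0.18 without NK shADAR1 replicate 2 to 0.073 without NK shADAR1 replicate 1. The same omissions took the median of the other subunits from -0.12 to 0.21 and that of the regulators and adaptors from 0.085 to -0.034. The cause was not tested. Overlap of groups was not counted with a library left out or under the block, which give no comparable value.

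The labels do not say whether libraries with the same replicate number are paired, so the main test did not pair them. Across the 11810 genes, which are not independent, the differences between replicates 2 and 1 correlated at r = 0.308 between the groups. They had the same sign in both groups for 59.8% of these genes and for 4 of the 10 dynein and dynactin genes. With the replicate block, edgeR called 13 genes in all, against 0 without it, and 0 of the 10. Leaving out 1 library, it called 47 genes without NK scramble replicate 1, 16 without NK shADAR1 replicate 1 and 1 and 2 in the other settings. With the block, log2 fold changes were 0.32 for DYNC1I2 and -0.16 for DYNC1LI1.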
